A study of Saccharomyces cerevisiae with 6 samples.

Results

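The genes described here are the pyruvate decarboxylases and alcohol dehydrogenases of *Saccharomyces cerevisiae*, 10 genes of the 5657 that the deposited table names. They were taken by their systematic names, as the rows for *PDC1*, *PDC5*, *PDC6* and *ADH1* to *ADH7*. All 10 had a row, and each had 1 probe set. The cells were *S. cerevisiae* F12, an engineered industrial yeast, so they are not the laboratory strain whose gene names are used here. They were taken after 4 h of fermentation in YNB medium with glucose and ammonium sulfate, with 40% insoluble solids (IS, w/w) in 3 samples and with 0% IS in another 3. Glass beads served as the solids, and the strain, medium and sampling time were shared by both conditions. Labelled cDNA made from the total RNA of each sample was hybridized to an Affymetrix yeast array.

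Yeast makes ethanol from pyruvate in a pair of steps. Pyruvate decarboxylase, which needs thiamine diphosphate, releases carbon dioxide and leaves acetaldehyde, and alcohol dehydrogenase then reduces the acetaldehyde to ethanol. The second step returns NADH to NAD+, so that glycolysis can go on without respiration. Several isoenzymes serve each step and differ in their place in the cell, their cofactor and the nutrients that control their genes.

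The level available for each gene is the authors' mean of the log2 signal after RMA, taken over all 6 arrays of both conditions. It therefore does not show how a gene differed between 40% IS and 0% IS, and the comparison that the design implies is not reported here. No spread between arrays goes with such a mean. Probe sets bind their targets with different strength, so the means of different genes have no order as transcript amounts. As a guide to the scale only, the authors' mean log2 signals in the whole table ran from 6.20 to 14.14.

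Of the 3 pyruvate decarboxylase genes, *PDC1* (YLR044C) encodes the major isoenzyme during growth on glucose. Its authors' mean log2 signal over both conditions was 13.44. *PDC5* (YLR134W) encodes a minor isoenzyme that is known to be expressed when *PDC1* is lost or thiamine is scarce, and its authors' mean log2 signal was 11.68. *PDC6* (YGR087C) encodes a further minor isoenzyme, known for its expression under sulfur limitation. The authors' mean log2 signal of *PDC6* was 8.27.

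Among the alcohol dehydrogenases, *ADH1* (YOL086C) encodes the cytosolic enzyme that forms most of the ethanol. Its authors' mean log2 signal was 13.73. *ADH2* (YMR303C) encodes the cytosolic enzyme that oxidizes ethanol and is known to be repressed by glucose, and its authors' mean log2 signal was 7.89. *ADH3* (YMR083W) encodes the mitochondrial isoenzyme, which takes part in moving reducing equivalents across the inner membrane, with an authors' mean log2 signal of 11.91. *ADH5* (YBR145W) encodes a further isoenzyme related in sequence to *ADH1*, and its authors' mean log2 signal was 10.85.

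The remaining alcohol dehydrogenase genes lie further from *ADH1* in sequence. *ADH4* (YGL256W) encodes an enzyme of another protein family and is known as a gene induced under zinc limitation. The authors' mean log2 signal of *ADH4* was 9.18. *ADH6* (YMR318C) and *ADH7* (YCR105W) encode NADPH-dependent enzymes that reduce a range of aldehydes. The authors' mean log2 signal was 10.85 for *ADH6*. For *ADH7* it was 6.51, near the lowest mean in the whole table (6.20). The mean of *ADH2* (7.89) also lay below the lower quartile of 8.03 in the whole table. Whether the signal of either gene exceeded background was not tested.

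The paralogs *PDC1* and *PDC5*, and likewise *ADH1* and *ADH2*, are similar in sequence, so signal shared between their probe sets is possible and was not tested. Shared signal was not tested for any other pair of the members either. Affymetrix marks a probe set that matches several transcripts with the ending _s_at, and one with probes that may bind other transcripts with _x_at. The first ending was carried by 102 of the 5705 probe sets and the second by 26. Of the 10 probe sets described here, 0 had either.

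The systematic names also give each gene's place. *PDC1* and *PDC5* both lie on the right arm of chromosome XII, *PDC1* on the Crick strand and *PDC5* on the Watson strand. *ADH2*, *ADH3* and *ADH6* all lie on the right arm of chromosome XIII. *PDC6* and *ADH4* share chromosome VII but lie on its right and left arm. *ADH1* is on the left arm of chromosome XV, *ADH5* on the right arm of chromosome II and *ADH7* on the right arm of chromosome III.

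A further 10 genes act close to these enzymes, and each had a row of 1 probe set. They were the transcription factor genes *PDC2*, *ADR1*, *GCR1*, *GCR2* and *ZAP1*, the thiamine regulator *THI3*, the decarboxylase gene *ARO10*, and the dehydrogenase genes *SFA1*, *BDH1* and *BDH2*. Their differences between conditions are likewise not reported here.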

How the data were processed

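Total RNA of 3 samples with 40% IS and 3 with 0% IS was measured on Affymetrix GeneChip Yeast Genome arrays. The authors processed the arrays with RMA in Expression Console and ran limma. The authors' deposited table has 5705 probe sets and 6 columns of values, of which the log2 mean signal over both conditions (AveExpr) was used. The other 5 hold the authors' own comparison of the conditions (a log2 difference, a moderated t, a p-value, an adjusted p-value and log-odds) and were not used. A further 3 columns had no name. The table has 0 columns of single arrays, so no test of the conditions was run, and the limma comparison planned for values per array was left out. The number of arrays limits the precision of the means.

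Rows were matched by systematic name, and 5646 of the 5657 names were found among the RefSeq genes of the R64 assembly. Symbols came from RefSeq, which gave all 10 members the symbols used. Chromosome, arm and strand were read from the systematic names. No coordinates were used, since the build behind the probe annotation is not given in the sources used here. The named genes are the 10 members, and the further list holds regulators and related enzymes. Members and list were chosen with earlier results of these data known. Python 3.11.15 and pandas 2.3.3 were used. Sequences were not used here.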

Additional observations from a re-analysis of the deposited data

How the results depend on the processing

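Keeping for each gene its brightest probe set, in place of every probe set, left the mean log2 signals of all 10 genes as given, because each gene had 1 probe set. No paired analysis was possible because the table holds no values of single arrays. The sample titles number the replicates within each condition and state no pairs between conditions. Without values of single arrays, alternatives for the comparison of the conditions could not be run either. These would be leaving out each replicate, a filter on dim probe sets, or limma with trend and robust options. The planned comparison of protein identities was not run because no protein sequences were available here. The means have no error beside them, and dim probe sets could not be set against a background.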
